A study of Rattus norvegicus with 12 samples.

Results

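Gene expression in terminal end buds of 35-day-old rats that had received 1 µg of diethylstilbestrol (DES) at birth was compared with that of age-matched rats given the oil vehicle. The comparison rests on the arrays labelled for these groups, 4 of the 12 in the series, with 2 animals and 2 arrays in each group. All rats were inbred female Sprague-Dawley rats, injected once under the skin within 24 hours of birth with sesame oil that either held 1 µg DES or did not. They were weaned, then killed at 35 days, and end buds were cut by laser from frozen, stained sections of the abdominal mammary glands. Each group is thus 2 rats of 1 inbred strain, measured after linear amplification of the captured RNA. For context, the same genes were set against end buds after DES 100 µg at 35 days, and against DES 1 µg and oil at 49 days, each with 2 arrays. The remaining arrays, DES 100 µg at 49 days, entered the model to estimate the spread between animals and are otherwise used only where levels are set against every other array of the series.

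DES is a synthetic estrogen. Terminal end buds are the club-shaped tips through which the ducts of the immature mammary gland grow into the fat pad, with a body of luminal precursors under a cap layer that gives rise to basal and myoepithelial cells. Estrogen and growth hormone drive this growth, in part through amphiregulin and insulin-like growth factors from epithelium and stroma. Milk genes normally belong to the alveoli of pregnancy and lactation, where prolactin acts through the kinase Jak2 and the transcription factor Stat5 to switch on caseins and whey proteins. Type I interferons act through Stat2 and Irf9, among others, on a different set of genes, which encode antiviral proteins.

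Levels are given as relative signal, the background-corrected intensity of a probe divided by the median of its array, and differences as log2 of DES 1 µg over oil with the standard error of the fit. The array medians were 38.95 and 27.25 for DES 1 µg and 35.4 and 29.4 for oil, and 60.3% of the probes were detected on both DES 1 µg arrays and 60.4% on both oil arrays. Signals near 0 can be negative after background subtraction. Precision is limited by the number of arrays. The 2 oil arrays at 49 days stood apart, with a lower share of probes detected than any other group (47.2%), and results that involve them carry this difference. Of 20 luminal epithelial marker genes on the array, 16 were detected on both DES 1 µg arrays and 16 on both oil arrays, and of 15 basal and myoepithelial marker genes 15 and 14 were, so the epithelium that the labels name was present in the captures. Markers of blood vessels, fat, fibroblasts and immune cells were detected too, and their values stand beside the results below.

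Of 11633 genes and unnamed probes tested, 393 were higher and 511 lower with DES 1 µg at an adjusted p below 0.05 in limma. This sets the background against which each gene group is read: 3.38% of all that was tested rose, 4.39% fell and 7.77% changed in either direction, with a median difference of -0.02. Of the called set 528 have a gene symbol, and 153 rises and 209 falls were at least 2-fold. Without the first oil array 358 passed, without the second oil array 491, and without the second DES array 378. Scaling to the 75th percentile gave 610 higher and 541 lower. The first DES array and the first oil array were scanned on the same day, and both contribute to the fit. Between them all 904 called genes differed in the direction of the fit. That follows from the arrays of the groups not overlapping in any of the 904, so it is no test of scan day. When the day of scanning entered the model as a block, for the 10 arrays with a known day, 0 genes passed in limma and 1297 had an unadjusted p below 0.05. That fit has fewer residual degrees of freedom than the 6 of the main fit. Its count of calls therefore cannot decide what part scan day has in the differences.

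**Figure D1:**
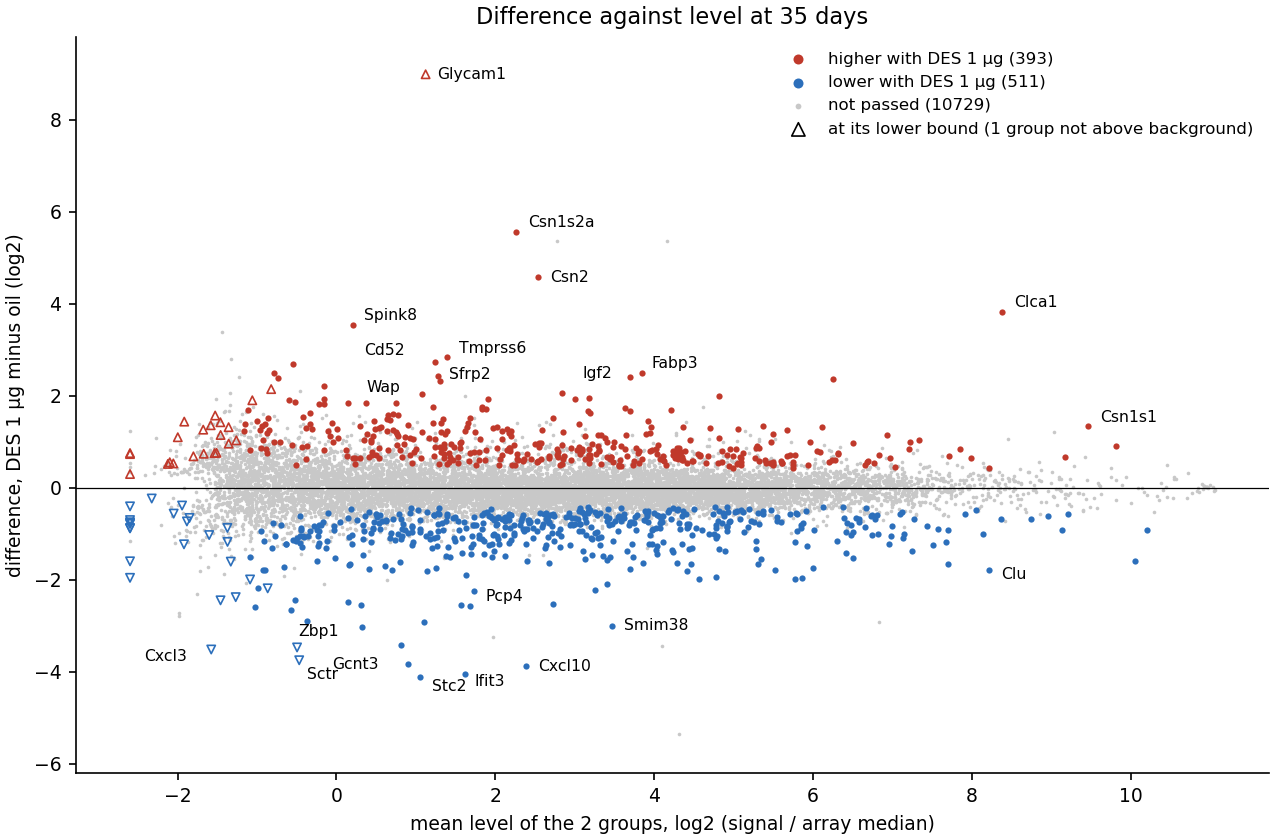
Each point is 1 of 11633 genes or unnamed probes, with its mean level over DES 1 µg and oil at 35 days on the x axis (log2 of signal over array median, levels off the left drawn at the edge) and its difference, DES 1 µg minus oil, on the y axis (log2). Red points passed higher (393), blue points passed lower (511), grey points did not pass, and open triangles are lower bounds for genes not above background in 1 group. Csn1s2a, Csn2, Clca1 and the bound for Glycam1 lie furthest above 0 among the points that passed, and Stc2, Ifit3, Cxcl10 and Gcnt3 furthest below.

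Of the 4 casein genes measured 3 rose, and they include the largest rises among named genes detected on every array of both groups. Csn1s2a, an alpha-S2 casein, had a relative signal of 28.2 and 37.8 with DES 1 µg and 0.746 and 0.639 with oil, a 47.3-fold difference (log2 5.56 ± 0.25, adjusted p = 5.1e-05). Csn2, beta-casein, had 31.3 and 25.4 with DES 1 µg and 1.28 and 1.09 with oil (23.9-fold, adjusted p = 5.1e-05). Both were well above the array median with DES 1 µg and close to it with oil. The groups did not overlap for either gene, as for 51.1% of all genes tested. Csn1s1, alpha-S1 casein, had 1227 and 1028 with DES 1 µg and was already bright with oil, at 458 and 432 (log2 1.34 ± 0.12, adjusted p = 0.00058). Csn3, kappa-casein, which holds casein micelles in solution, had 173 and 252 with DES 1 µg and 156 and 175 with oil and did not pass (log2 0.34 ± 0.24, adjusted p = 0.43). The casein median was 2.96 (3 of 4 called higher, against 3.38% of all genes), and 3 of the 4 were higher on both DES 1 µg arrays at 35 days than on every other array of the series, against 1.75% of all genes.

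The caseins lie together on rat chromosome 14. In the RefSeq gene order of the GRCr8 assembly, Csn1s2b, Csn1s2a, Stath, Csn2 and Csn1s1 follow each other, with the estrogen sulfotransferase gene Sult1e1 and its relative Sult1d1 beyond Csn1s1. Of these neighbours Sult1d1 was tested besides the caseins, and its difference was -0.52 (adjusted p = 0.14).

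The start regions of the caseins are shown because these neighbours moved together while Csn3 did not pass. Each is the RefSeq sequence (GRCr8) from 250 bases before to 50 bases after the annotated start, written 5′ to 3′ on the gene's strand, with matches to TTCNNNGAA in capitals. This 9-letter pattern is the core of the sites that Stat5 binds, and it reads the same on both strands. Csn1s2a (chr14:20574422-20574721, minus strand), Csn2 (chr14:20601574-20601873, plus strand), Csn1s1 (chr14:20638800-20639099, minus strand), Csn3 (chr14:20439781-20440080, minus strand) and Glycam1 (chr7:136561250-136561549, minus strand), a mucin-like milk protein whose values follow, read:
Csn1s2a: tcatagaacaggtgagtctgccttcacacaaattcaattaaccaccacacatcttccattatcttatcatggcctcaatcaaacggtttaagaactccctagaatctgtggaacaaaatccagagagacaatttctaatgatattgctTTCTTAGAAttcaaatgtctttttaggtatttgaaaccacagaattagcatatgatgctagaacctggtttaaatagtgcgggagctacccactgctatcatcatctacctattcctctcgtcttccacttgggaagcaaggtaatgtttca
Csn2: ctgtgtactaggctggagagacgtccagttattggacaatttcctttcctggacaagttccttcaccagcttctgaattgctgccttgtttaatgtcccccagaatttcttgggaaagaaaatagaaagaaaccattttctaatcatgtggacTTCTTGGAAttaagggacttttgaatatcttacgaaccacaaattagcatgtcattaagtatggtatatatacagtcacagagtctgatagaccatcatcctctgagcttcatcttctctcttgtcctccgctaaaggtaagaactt
Csn1s1: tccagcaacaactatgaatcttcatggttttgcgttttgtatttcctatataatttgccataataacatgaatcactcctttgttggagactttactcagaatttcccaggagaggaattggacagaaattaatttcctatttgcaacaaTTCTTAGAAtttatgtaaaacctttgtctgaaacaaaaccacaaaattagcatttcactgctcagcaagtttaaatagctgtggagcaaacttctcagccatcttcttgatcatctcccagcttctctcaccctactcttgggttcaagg
Csn3: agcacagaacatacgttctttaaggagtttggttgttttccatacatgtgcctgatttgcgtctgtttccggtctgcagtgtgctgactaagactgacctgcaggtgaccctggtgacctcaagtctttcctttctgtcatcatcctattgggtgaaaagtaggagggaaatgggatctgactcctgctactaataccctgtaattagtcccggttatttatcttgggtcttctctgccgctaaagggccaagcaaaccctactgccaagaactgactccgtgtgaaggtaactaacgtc
Glycam1: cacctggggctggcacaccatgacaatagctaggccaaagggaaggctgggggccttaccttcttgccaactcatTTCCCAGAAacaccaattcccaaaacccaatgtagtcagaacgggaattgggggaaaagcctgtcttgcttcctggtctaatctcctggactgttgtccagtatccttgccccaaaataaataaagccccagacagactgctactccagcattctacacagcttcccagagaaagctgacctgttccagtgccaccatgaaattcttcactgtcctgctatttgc

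The match begins 102 bases before the start in Csn1s2a, 97 in Csn2 and 100 in Csn1s1, and it reads TTCTTAGAA, TTCTTGGAA and TTCTTAGAA. Glycam1 has TTCCCAGAA 175 bases before its start, and the window of Csn3 has no match. Of 27457 windows of this length in the table, 8.68% hold the pattern, and of 5283 that belong to genes tested here 6.76% do. A match is a run of letters and does not show binding. The window of Wap, another Stat5-dependent milk gene that rose, has none. Among the whey and other milk proteins tested, 1 of 10 windows holds the pattern (10%), that of Glycam1.

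Other milk proteins split. Glycam1 had 137 and 133 with DES 1 µg and 0.0726 and -0.00231 with oil, where neither array was above background, and was at least 507-fold higher, counted from the lowest signal detected on the oil arrays (adjusted p = 0.00021). Wap, the whey acidic protein, had 3.49 and 5.03 with DES 1 µg and 0.859 and 1.23 with oil (log2 2.02 ± 0.24, adjusted p = 0.0021). Muc1, a mucin of the luminal surface and the milk fat globule, rose by 1.00, while a second, dimmer probe for it did not pass (0.11). Lalba, alpha-lactalbumin, which directs lactose synthesis, had 375 and 311 with DES 1 µg and 415 and 479.6 with oil and did not pass (adjusted p = 0.16). Clu, the chaperone clusterin, went the other way, with 162 and 159 with DES 1 µg and 590.4 and 517 with oil (-1.79, adjusted p = 0.00021). The iron carriers Tf (-0.87) and Lcn2 (-1.38, which binds bacterial iron chelators) and the protease inhibitor Slpi (-0.77) fell as well. In this list 3 of 12 rose and 4 fell, and its median was -0.51.

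Among milk fat genes, Fabp3, a fatty acid binding protein of muscle and mammary epithelium, had 35.4 and 33.0 with DES 1 µg and 6.38 and 5.78 with oil (5.63-fold, adjusted p = 0.00012). Lpl, lipoprotein lipase, rose by 0.85 (adjusted p = 0.0035), and the other 12 of 14 did not pass, so the median was 0.05. Of 12 genes for transport across alveolar cells, Clca1, which modulates calcium-activated chloride channels, stood out. Its relative signal was 1291 and 1207 with DES 1 µg and 100.0 and 78.2 with oil (14.1-fold, adjusted p = 1.5e-05), with no saturated spot on these arrays. The water channel Aqp5 had 51.1 and 55.0 with DES 1 µg and 168 and 141 with oil and fell (-1.53), as did Slc12a2, a sodium, potassium and chloride cotransporter (-0.86). The endoplasmic reticulum folding genes that serve a secretory load stayed near the median of all genes, with 0 of 24 higher, 1 lower (Dnajc3, -0.45) and a median of -0.12.

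**Figure D2:**
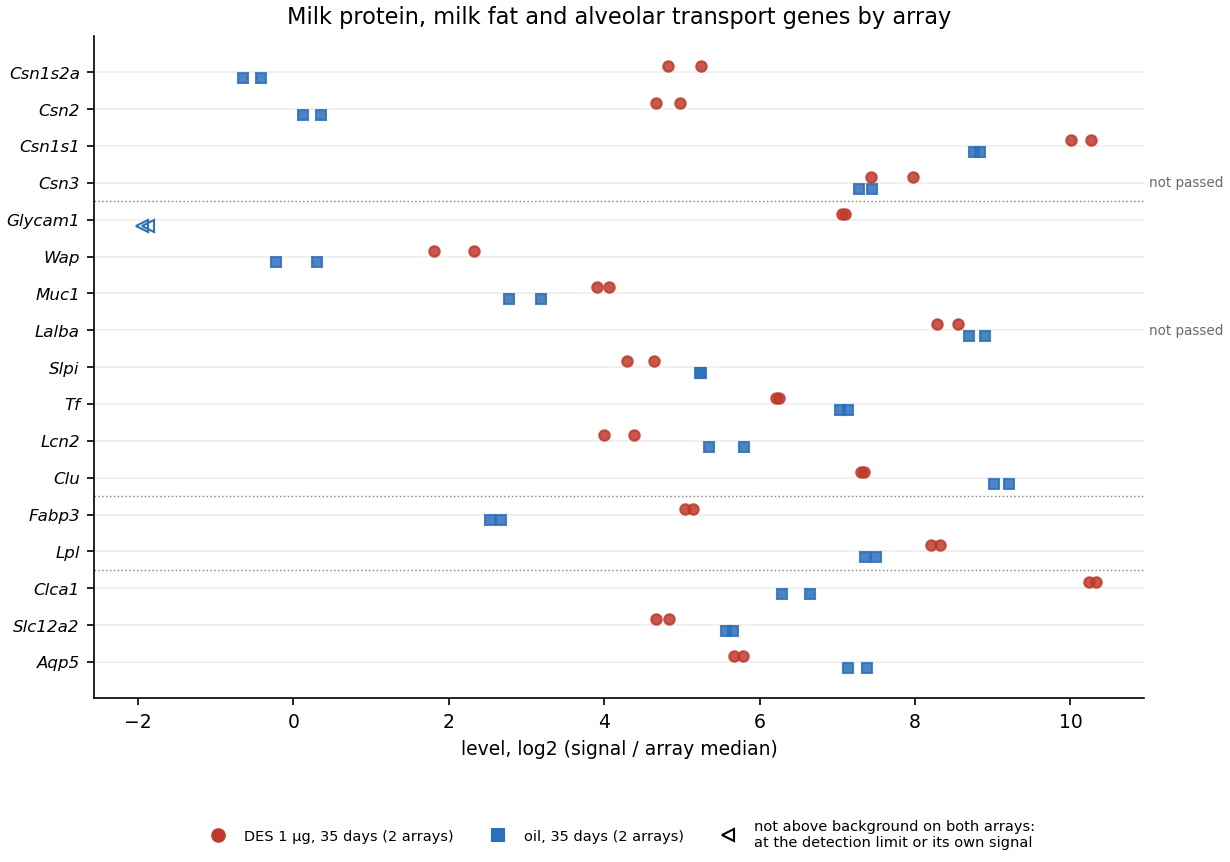
Level on each array (x axis, log2 of signal over array median) of the 4 caseins, called whey and other milk proteins with Lalba, and called milk fat and transport genes, in blocks from top to bottom. Red circles are the 2 DES 1 µg arrays and blue squares the 2 oil arrays at 35 days, and open triangles mark a group not above background. Csn1s2a (28.2 and 37.8 in relative signal with DES 1 µg, 0.746 and 0.639 with oil) and Glycam1 have the widest gaps, and Clu, Lcn2 and Aqp5 run the other way.

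Of 9 prolactin and Stat5 signalling genes tested 3 fell and 1 rose, with a median of -0.32. Stat5a had 97.3 and 102 with DES 1 µg and 200.3 and 202 with oil (log2 -1.01 ± 0.11, adjusted p = 0.0016). Stat5b (-1.04) and Jak2 (-1.23) also fell, with adjusted p of 0.0094 and 0.0051. Prlr, the prolactin receptor, had 2.24 and 2.54 with DES 1 µg and 2.97 and 2.99 with oil and did not pass (-0.32, adjusted p = 0.16). Cish, a feedback inhibitor that Stat5 induces, was the gene called higher, at 1.45 and 1.48 with DES 1 µg and 0.895 and 0.997 with oil (0.63, adjusted p = 0.04). This call was lost whichever of the 4 arrays was left out (adjusted p from 0.092 to 0.19). The call on Stat5b was lost without the first oil array (adjusted p = 0.071) or the second DES array (adjusted p = 0.069). RNA levels do not measure Stat5 phosphorylation.

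Of 12 estrogen-responsive genes 4 fell and 0 rose in limma, and their median was -0.35. Stc2, a secreted glycoprotein hormone that estrogen induces in breast cancer cells, had 0.662 and 0.354 with DES 1 µg and 8.79 and 8.06 with oil, a 17.4-fold lower level after DES (log2 -4.12 ± 0.25, adjusted p = 0.00012). Pgr, the progesterone receptor, had 3.31 and 3.38 with DES 1 µg and 5.40 and 5.27 with oil (log2 -0.67 ± 0.11, adjusted p = 0.0098). Fos (-1.63) and the luminal keratin gene Krt19 (-0.92) were the other falls. The call on Pgr was lost without the first oil array (adjusted p = 0.065) or the second DES array (adjusted p = 0.051). Areg, amphiregulin, was among the brightest genes in both groups, at 757 and 881 with DES 1 µg and 1079 and 912 with oil, and did not pass (adjusted p = 0.25). All 6 EGF-family ligands and receptors tested had differences below 0. In limma 0 of them passed and 3 had an unadjusted p below 0.05. Among them the ligand genes Ereg and Nrg1 had differences of -0.60 (adjusted p = 0.077) and -0.75 (adjusted p = 0.077).

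Among 15 nuclear receptors, the mineralocorticoid receptor gene Nr3c2 rose, with 2.85 and 2.69 with DES 1 µg and 1.29 and 1.32 with oil (1.08, adjusted p = 0.0018), and so did Nr1h3, the liver X receptor alpha (0.64). Besides Pgr, the stress-induced orphan receptor gene Nr4a1 fell (-0.46), and Nr4a3 was at least 1.33-fold lower, being above background only in oil. Hsd11b2, the enzyme that inactivates glucocorticoids and so protects the mineralocorticoid receptor, also rose. It had 54.4 and 57.6 with DES 1 µg and 13.3 and 15.1 with oil (log2 1.98 ± 0.19, adjusted p = 0.00067).

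Among growth factors, Igf2, a fetal-type insulin-like growth factor, rose. Its relative signal was 29.3 and 30.6 with DES 1 µg and 5.57 and 5.75 with oil (5.29-fold, log2 2.40 ± 0.11, adjusted p = 5.2e-05). A probe that the array file describes as the rat ASM15 gene, for which no symbol was matched, had 179.7 and 168 with DES 1 µg and 35.0 and 32.3 with oil (2.37 ± 0.12, adjusted p = 6.9e-05), and was picked out after its values were seen. Igf1 had 62.4 and 69.0 with DES 1 µg and 26.8 and 37.1 with oil and missed the threshold (1.06 ± 0.27, adjusted p = 0.051). Of 10 genes of the IGF axis 1, Igf2, was called. Sfrp2, a secreted modulator of Wnt signalling made by fibroblasts, had 5.96 and 5.06 with DES 1 µg and 1.16 and 1.04 with oil (2.32 ± 0.15, adjusted p = 0.00014), whereas Rspo3, which amplifies Wnt signals, was at least 2.27-fold lower. Inhbb, a subunit of activin and inhibin, fell (-1.31, adjusted p = 0.037).

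Glycan enzymes and surface proteins were among the falls. Gcnt3, which branches mucin-type glycans, had 0.660 and 0.352 with DES 1 µg and 6.75 and 7.01 with oil (-3.83 ± 0.26, adjusted p = 0.00016). Fut2 (-2.56) and Fut1 (-0.99), which add fucose to the ends of glycans, fell too, and the other 12 of 15 glycan synthesis genes did not pass. Smim38, a small membrane protein, had 4.72 and 3.19 with DES 1 µg and 34.2 and 28.3 with oil (-3.0). Msln, mesothelin, a surface glycoprotein, had 32.6 and 22.7 with DES 1 µg and 106 and 109.9 with oil (-1.99). Pcp4, which binds calmodulin, differed by -2.26, and the keratin pseudogene Krt6a-ps2, whose probe may also bind related keratins, differed by -2.48. Hpgd, which inactivates prostaglandins, had 5.42 and 3.50 with DES 1 µg and 23.5 and 17.6 with oil (-2.22 ± 0.29, adjusted p = 0.0036), and the prostaglandin transporter Slco2a1 fell beside it (-0.90).

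Several genes that were measured in oil were not above background on either DES array. Sctr, the secretin receptor, had 0.226 and 0.0466 with DES 1 µg and 3.56 and 4.08 with oil and was at least 13.5-fold lower (adjusted p = 0.0019). Cxcl3, a chemokine for neutrophils, was at least 11.5-fold lower, Abcc8, a subunit of potassium channels, at least 5.47-fold, Dgkb, a diacylglycerol kinase, at least 5.21-fold, Ccl28, a mucosal chemokine, at least 4.56-fold and Ralyl at least 3.90-fold. In the other direction, and besides Glycam1, the bounds were small. Levels were at least 3.73-fold higher for Slc22a3, a transporter of organic cations, at least 2.68-fold for the peptide transporter Slc15a1, at least 2.14-fold for the mast cell protease Mcpt1, at least 1.68-fold for Ccl19, a chemokine of lymphoid tissue, and at least 1.68-fold for Syt11.

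Other rises among the 12 largest came from other families. Spink8, a protease inhibitor of the Kazal type, had 3.77 and 3.96 with DES 1 µg and 0.259 and 0.425 with oil (3.54 ± 0.33, adjusted p = 0.00067). Tmprss6, a membrane serine protease known from iron control in the liver, had 5.91 and 8.18 with DES 1 µg and 0.938 and 1.01 with oil (2.84). Cd52, a short surface glycoprotein of lymphocytes that is also made by some epithelia, had 5.83 and 6.28 with DES 1 µg and 0.780 and 1.07 with oil (2.73). The arrays of the groups did not overlap in these, but neither did they in any of the 904 called genes or in 51.1% of all genes tested.

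Interferon-induced genes fell together. Of 18 type I interferon-induced genes tested, 13 fell and 0 rose in limma, against 4.39% of all genes falling, and their median was -1.11. Ifit3, an antiviral protein of the IFIT family, had 0.757 and 0.752 with DES 1 µg and 13.6 and 11.5 with oil (-4.05 ± 0.44, adjusted p = 0.0014). Irf7, the transcription factor that amplifies the response, had 13.4 and 14.8 with DES 1 µg and 56.8 and 51.0 with oil (-1.94 ± 0.14, adjusted p = 0.00019). Usp18, a protease that removes ISG15 from proteins and damps the receptor, had 25.7 and 24.1 with DES 1 µg and 83.6 and 87.4 with oil (-1.78). The nucleic acid sensor Zbp1 (-3.03), the RNA-cutting pathway gene Oas1a (-1.26) and its relatives Oasl (-1.49) and Oasl2 (-1.03) fell, as did Stat2 (-1.38), Cmpk2 (-1.38), the RNA sensor gene Dhx58 (-1.19), the exonuclease gene Isg20 (-0.95), Lgals3bp (-0.94) and Parp9 (-0.67).

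Without 1 array at a time 10 to 13 of the 18 fell. The oil arrays, rather than the DES arrays, stood apart for these genes. In 13 of the 18 genes both oil arrays at 35 days were above all 10 other arrays of the series, against 2.46% of all genes tested. For Ifit3 the 10 other arrays, DES at both doses and ages and oil at 49 days, spanned 0.207 to 0.987, and for Usp18 18.0 to 42.7. The arrays of the 2 oil rats at 35 days were scanned on different days. Between the 2 arrays that share a scan day the difference was -4.17 for Ifit3 and -2.09 for Irf7.

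Start regions of 3 of these falling genes and of Cxcl10, a falling chemokine gene, are shown as examples that hold the same short pattern. Of the other falling genes with a window, Stat2, Cmpk2, Oasl and Parp9 have no match. GAAANNGAAA is the repeat that Stat and Irf complexes read in interferon-stimulated response elements. Both strands were searched, so that a match on the other strand appears as TTTCNNTTTC, and matches are in capitals in the same RefSeq windows as above (GRCr8). They are Irf7 (chr1:205799974-205800273, minus strand), Ifit3 (chr1:241527076-241527375, plus strand), Oas1a (chr12:41330216-41330515, plus strand) and Cxcl10 (chr14:15988816-15989115, plus strand):
Irf7: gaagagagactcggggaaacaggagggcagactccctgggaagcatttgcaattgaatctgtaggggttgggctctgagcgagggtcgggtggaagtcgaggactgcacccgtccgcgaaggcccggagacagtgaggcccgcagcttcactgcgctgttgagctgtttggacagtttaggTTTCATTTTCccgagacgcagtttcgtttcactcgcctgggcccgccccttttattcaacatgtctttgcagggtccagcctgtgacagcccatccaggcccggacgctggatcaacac
Ifit3: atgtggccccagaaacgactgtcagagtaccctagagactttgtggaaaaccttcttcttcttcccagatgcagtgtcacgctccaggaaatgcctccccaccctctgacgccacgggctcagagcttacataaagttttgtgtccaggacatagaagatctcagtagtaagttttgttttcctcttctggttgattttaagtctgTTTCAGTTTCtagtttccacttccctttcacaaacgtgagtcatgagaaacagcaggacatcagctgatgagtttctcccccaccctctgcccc
Oas1a: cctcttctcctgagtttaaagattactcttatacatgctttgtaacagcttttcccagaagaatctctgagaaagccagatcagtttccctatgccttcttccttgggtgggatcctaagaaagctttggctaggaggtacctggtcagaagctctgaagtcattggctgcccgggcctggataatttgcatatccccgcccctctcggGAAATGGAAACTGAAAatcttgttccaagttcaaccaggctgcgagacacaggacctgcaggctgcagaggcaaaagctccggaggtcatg
Cxcl10: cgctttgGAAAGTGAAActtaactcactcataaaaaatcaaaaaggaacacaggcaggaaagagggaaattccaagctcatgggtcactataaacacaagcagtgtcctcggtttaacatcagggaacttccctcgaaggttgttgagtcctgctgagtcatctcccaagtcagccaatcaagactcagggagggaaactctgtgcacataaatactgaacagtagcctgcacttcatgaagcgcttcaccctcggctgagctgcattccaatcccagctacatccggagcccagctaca

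Ifit3 has TTTCAGTTTC beginning 44 bases before its start, Irf7 has TTTCATTTTC at 69, and Oas1a has 2 overlapping matches at 41 and 35. In all, 9 of the 15 tested interferon genes with a window in the table hold the pattern, 6 of the 10 that fell among them, compared with 3.77% of all windows. These genes are known interferon targets, so the pattern describes the list and not the response to DES.

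Genes induced by interferon-gamma and the immunoproteasome followed, with 7 of 17 lower, against 4.39% of all genes, 0 higher and a median of -0.56. Gbp2, a guanylate-binding protein, had 13.2 and 9.61 with DES 1 µg and 44.1 and 35.7 with oil (-1.81 ± 0.21, adjusted p = 0.0018). B2m, the light chain of MHC class I, had 193 and 207 with DES 1 µg and 401 and 401 with oil (-1.01). The proteasome subunit gene Psmb9 (-0.92), the peptide transport genes Tap1 (-1.04) and Tapbp (-1.23), and the transcription factor gene Irf1 (-0.56) fell too. Of the 17, 4 to 6 fell when 1 array was left out, 4 without the second DES array. Of 4 MHC class II genes Cd74, the invariant chain (-1.03), and RT1-DMa (-0.81) fell.

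Chemokines moved in both directions, 5 higher and 8 lower of 19, beside 3.38% and 4.39% of all genes. Cxcl10, an interferon-induced attractant of T cells, had 1.17 and 1.57 with DES 1 µg and 18.6 and 21.4 with oil (-3.88 ± 0.39, adjusted p = 0.001). The monocyte chemokine genes Ccl7 (-1.70) and Ccl2 (-1.48) fell, and so did Ccl12, Xcl1, Ccl6, Cxcl3 and Ccl28. Cxcl2, which draws neutrophils as Cxcl3 does, went the other way, with 1.48 and 1.64 with DES 1 µg and 0.576 and 0.612 with oil (1.39, adjusted p = 0.0018). Cxcl1 (0.87) and Ccl27 (0.60) rose with it, as did Ccl19 and Ccl21, neither of which was detected on both oil arrays. Of the 19, 2 rose and 4 to 6 fell without 1 array at a time.

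**Figure D3:**
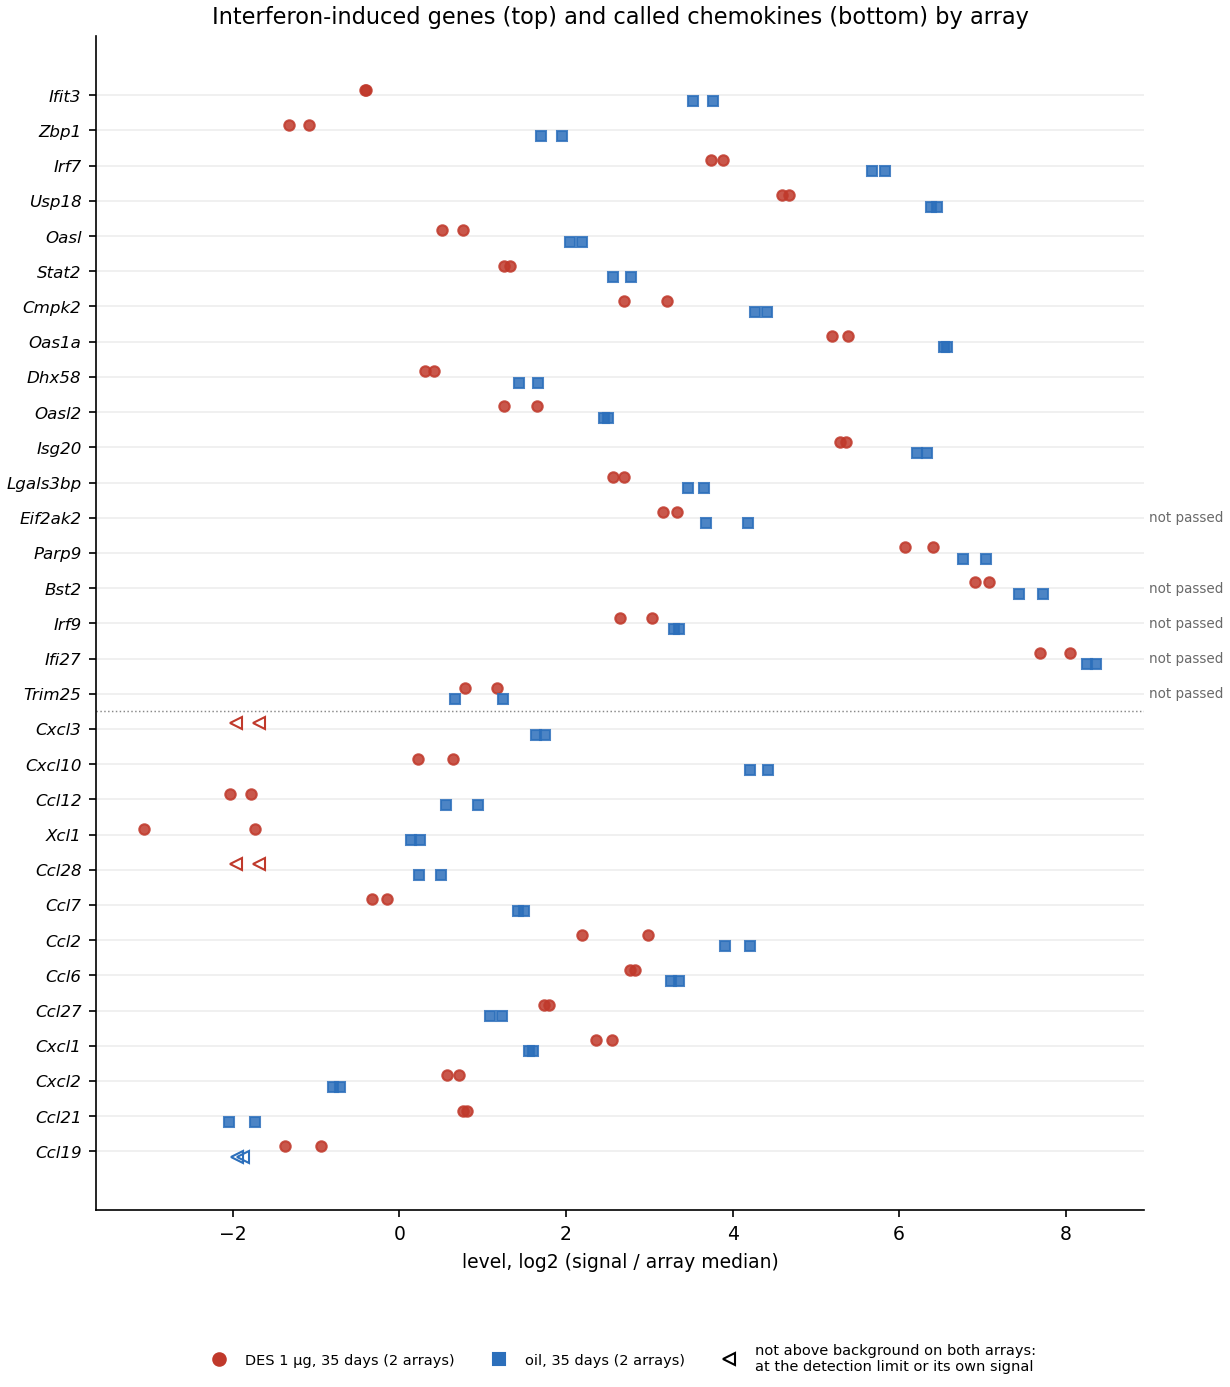
Level on each array (x axis, log2 of signal over array median) of the 18 type I interferon-induced genes tested (top) and the 13 called chemokines (bottom). Red circles are the 2 DES 1 µg arrays, blue squares the 2 oil arrays at 35 days, open triangles a group not above background, and genes that did not pass are marked. In the top block the oil arrays lie to the right of the DES arrays in 17 of the 18 genes, most widely for Ifit3 (0.757 and 0.752 in relative signal with DES 1 µg, 13.6 and 11.5 with oil), while the chemokines lie on either side.

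Some markers of macrophages and lymphocytes fell as well. Summed over 15 macrophage and complement genes, the relative signal was 440.0 and 453 with DES 1 µg and 615 and 699 with oil. Of these genes 3 fell, namely the Fc receptor genes Fcgr3a (-1.25) and Fcgr1a (-0.44) and the complement gene C2 (-0.94), and 0 rose. Of 14 lymphocyte genes 6 fell, against 4.39% of all genes, and Cd52 rose. The falls included Gzma, a granule protease of killer cells (-1.77), Jchain, of secreted antibodies (-1.22), and the T cell genes Cd3g (-0.83) and Zap70 (-0.92). Without 1 array at a time 2 to 5 of the 14 fell: 2 without either oil array and 3 without the second DES array. The calls on Cd3g and Zap70 were lost in each of these fits. All 7 mast cell genes tested had differences above 0, and 2 of them, Mcpt1 and Cma1, passed higher, with a median of 0.56, but 0 or 1 rose without 1 array at a time in limma. Summed lymphocyte signal was 64.4 and 57.8 with DES 1 µg and 72.6 and 69.7 with oil. Summed mast cell signal was 44.5 and 49.2 with DES 1 µg and 31.4 and 32.0 with oil. In captured tissue, fewer cells of a type and less RNA per cell cannot be told apart, and the part that immune cells have in the interferon values was not tested.

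Endothelial markers rose. Of 12 tested 9 passed higher and 0 lower, against 3.38% of all genes rising, and their median was 1.14. Emcn, endomucin, had 14.6 and 14.6 with DES 1 µg and 3.67 and 3.38 with oil (2.05 ± 0.15, adjusted p = 0.00019). Kdr, the main receptor for VEGF, had 42.9 and 44.4 with DES 1 µg and 23.6 and 25.2 with oil (0.84, adjusted p = 0.026), and Apln, the apelin peptide of sprouting vessels, had 22.8 and 23.4 with DES 1 µg and 10.8 and 9.66 with oil (1.18). Rasip1 (1.45), the apelin receptor gene Aplnr (1.28), Sox18 (1.11), Egfl7 (0.92), Plvap (0.81) and the junction gene Cldn5 (1.90) also rose. Vwf did not pass (-0.22), although a dimmer probe for it gave 0.85 and passed when every probe was tested on its own. Without 1 array at a time 6 or 7 of the 12 rose. Summed endothelial signal was 151 and 159 with DES 1 µg and 78.1 and 82.0 with oil, and in 7 of the 12 genes both DES 1 µg arrays were above all 10 others, against 1.75% of all genes.

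Other stromal markers rose in part. Of 16 adipocyte genes 7 rose and 0 fell, against 3.38% and 4.39% of all genes, with a median of 0.56. Without 1 array at a time 3 or 4 rose, 3 without the first oil array. Adrb3, the beta-3 adrenergic receptor, had 1.71 and 1.79 with DES 1 µg and 0.438 and 0.476 with oil (1.94), and Cfd, adipsin, had 193 and 271 with DES 1 µg and 101 and 123 with oil (1.04). Pck1 (0.80), Fabp4 (0.73), Adipoq (0.69), Aqp7 (0.68) and Lpl complete the list. Of 15 collagen and matrix genes Col15a1 (1.23), Col1a2 (0.90) and Col6a3 (0.67) rose, and of 12 proteoglycan and fibroblast genes Mgp (1.00), Bgn (0.68) and Ogn (0.60). In fits without 1 array, 1 collagen and matrix gene and 1 or 2 proteoglycan and fibroblast genes rose. Summed signal of the adipocyte list was 818 and 936 with DES 1 µg and 643 and 638 with oil, and of the collagen list 2551 and 2568 with DES 1 µg and 1595 and 1678 with oil. The part that captured stroma has in any rise named here was not tested.

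Of 12 pericyte and smooth muscle genes 2 rose, 2 fell and 8 did not pass, with a median of 0.20. The pericyte genes Cspg4 (1.00) and Kcnj8 (0.99) rose, while the smooth muscle genes Cnn1 (-0.96) and Actg2 (-0.57), which myoepithelial cells also express, fell. The calls on Kcnj8, Cnn1 and Actg2 depended on single arrays, and that on Actg2 was also lost with 75th percentile scaling. The Notch ligand gene Jag1 (-0.81) fell with Cnn1 and Actg2. In all, 4 of 15 basal genes fell, against 4.39% of all genes. The number falling was 1 to 3 when 1 array was left out. Krt14, the basal keratin, had 101 and 109 with DES 1 µg and 92.9 and 98.0 with oil and did not pass (adjusted p = 0.48). Summed basal signal was 454 and 462 with DES 1 µg and 578 and 619 with oil.

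Of 16 luminal genes the keratins Krt19 and Krt7 (-0.96) fell, while the tight junction genes Ocln (0.70) and Cldn1 (0.54) and Muc1 rose. In fits without 1 array, 0 to 2 luminal genes rose and 1 to 3 fell in limma. Krt7 had 59.0 and 63.5 with DES 1 µg and 125 and 114 with oil, with summed luminal signal at 2093 and 2222 with DES 1 µg and 3195 and 2861 with oil. Second, dimmer probes for Ocln and Cldn1 gave -0.42 and 0.02 and did not pass. In the basement membrane, Lama2 (0.87) and Itga7 (0.94) rose and Lama1 (-1.25) fell, while a second probe for Lama1 gave 1.69 without passing. Matrix-cutting enzyme genes Mmp3 (-0.67), Mmp12 (-1.01) and Adamts1 (-1.03) fell. Each of these calls depended on single arrays, and that on Mmp3 was also lost with 75th percentile scaling. Of 12 genes listed for matrix metalloproteinases and inhibitors 3 fell, 0 rose and 9 did not pass, with a median of 0.13. Mmp14, which activates other metalloproteinases, had 549 and 462 with DES 1 µg and 216 and 270.1 with oil without passing (adjusted p = 0.058).

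Genes of growth and metabolism moved in both directions. Of 35 cell cycle genes 6 rose, led by Pttg1, securin, at 173 and 192 with DES 1 µg and 78.2 and 86.1 with oil (1.15 ± 0.15, adjusted p = 0.0037), and including the mitotic genes Plk1 (0.64), Ccnb2 (0.68), Ndc80 (0.89), Cenpe (0.69) and Dlgap5 (0.59), while the replication gene Mcm7 fell (-0.59). Of the 6 rises, Pttg1 kept its call whichever array was left out. Without either oil array or without the first DES array 1 rose, and without the second DES array 3 did. All 19 cholesterol synthesis genes had differences below 0, from -1.06 to -0.04, and Msmo1 (-0.83), Sc5d (-0.72) and Acat2 (-0.78) passed. Of the list, 1 gene passed without either oil array or without the second DES array. Of 22 immediate early genes Atf3, a stress-induced repressor, had 5.55 and 4.70 with DES 1 µg and 14.9 and 14.8 with oil (-1.54 ± 0.12, adjusted p = 0.00027). Fos, Dusp5 (-0.62) and Nr4a1 fell with it, and Gadd45g (1.17), Ccn1 (0.92) and Ier3 (0.67) rose. In this list 1 or 2 rose and 2 or 3 fell without 1 array at a time.

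Alas2, the heme synthesis enzyme of red cell precursors, had 6.24 and 6.83 with DES 1 µg and 1.85 and 2.05 with oil (1.74 ± 0.14, adjusted p = 0.00037). Retinoid genes Stra6 (0.63) and Rbp4 (0.59) rose, as did the mast cell protease Cma1 (0.78). Besides the EGF family, 0 genes passed in limma in 4 lists: 16 for fatty acid synthesis (median -0.30), 19 for p53 targets and DNA repair (-0.11), 17 for DNA methyltransferases and histone modifiers (0.05) and 35 for cytosolic ribosomal proteins (-0.07). At an unadjusted p below 0.05 these lists held 7, 2, 0 and 2 genes, in the same order. Of 33 oxidative phosphorylation genes, Uqcrh passed lower (-0.58).

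**Figure D4:**
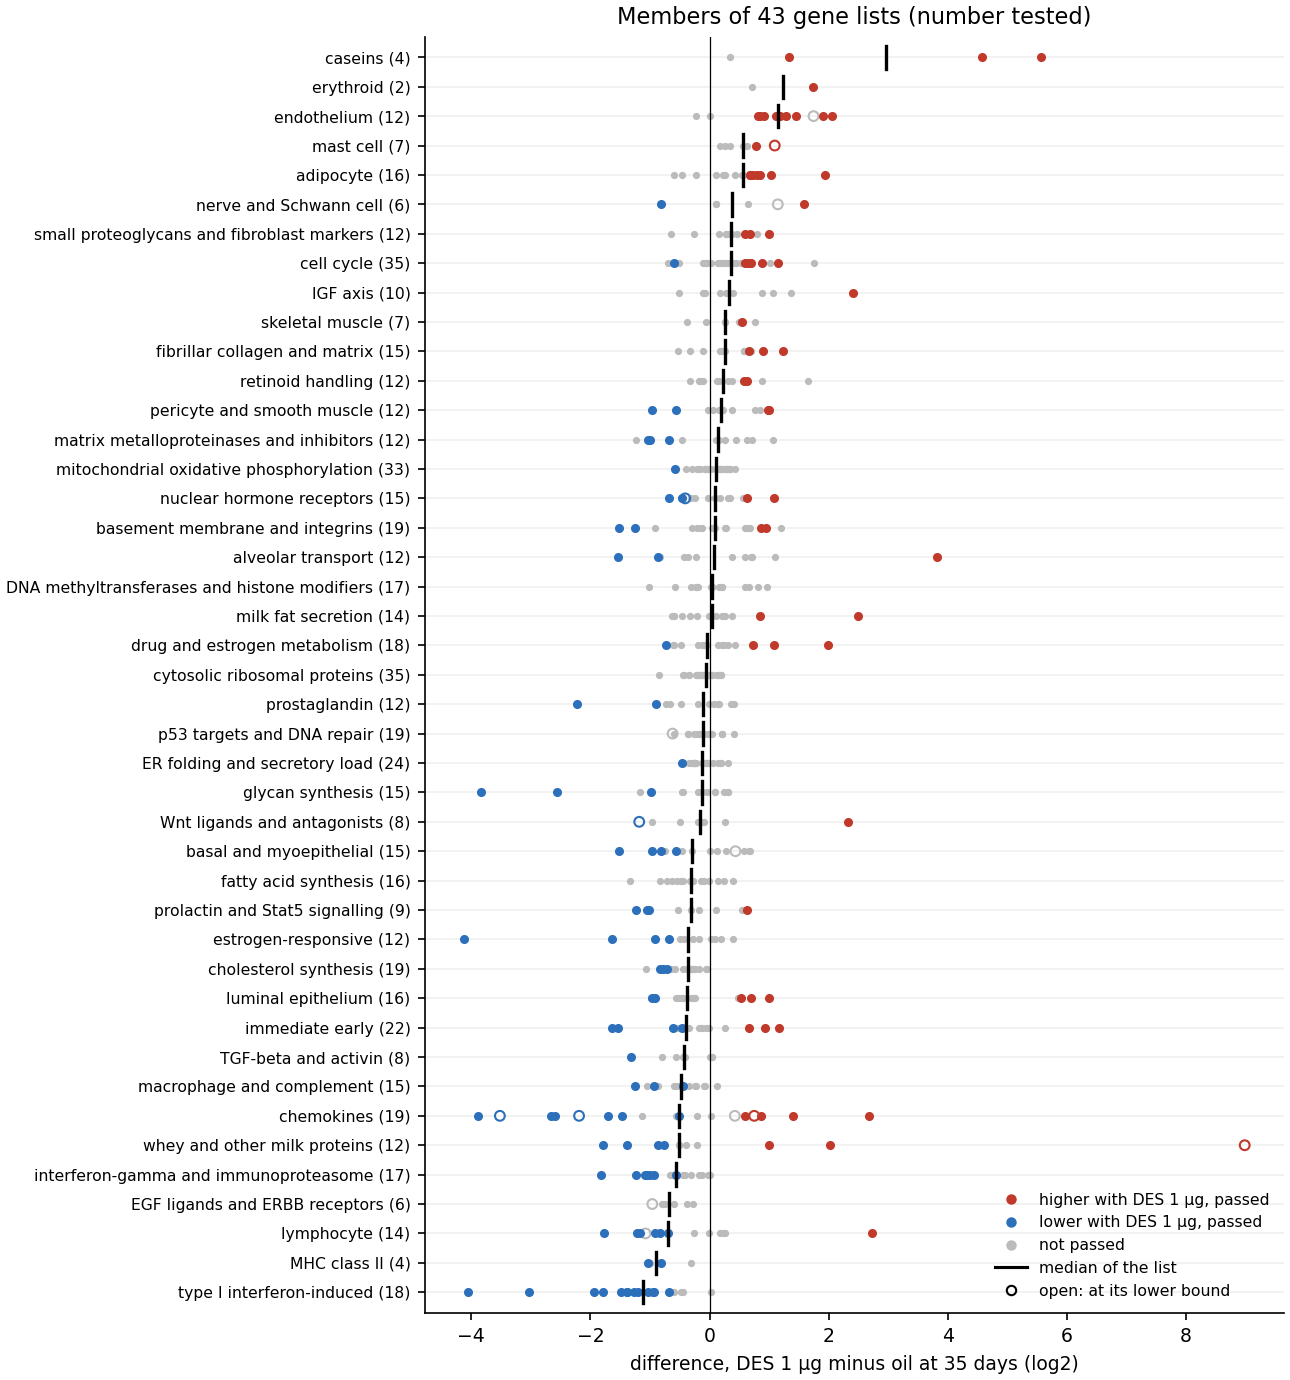
Difference between DES 1 µg and oil at 35 days (x axis, log2) for the tested members of 43 gene lists, ordered by the list median (black bar, with bounds where they apply) and labelled with the number tested. Red and blue points passed higher and lower, grey points did not pass, and open circles are lower bounds. Caseins lie at the top with a median of 2.96, followed by the 2 erythroid genes (1.23) and endothelium (1.14), and type I interferon-induced genes at the bottom with -1.11.

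The doses were compared at 35 days to see whether the changes belong to the lower dose. Between DES 1 µg and DES 100 µg, 461 genes were higher and 497 lower with 1 µg, 3.91% and 4.21% of 11793 tested, or 8.12% in either direction. Without the second DES 1 µg array 446 passed, and without the first or the second DES 100 µg array 472 and 466. Csn1s2a had 28.2 and 37.8 after 1 µg and 0.610 and 0.420 after 100 µg (6.01 ± 0.25, adjusted p = 1.7e-05), and Csn2 had 31.3 and 25.4 after 1 µg and 2.34 and 1.56 after 100 µg (3.89 ± 0.21, adjusted p = 4.2e-05). Clca1 (4.60), Tmprss6 (3.49) and Wap (3.17) were also higher after 1 µg, as was Hepacam2, an adhesion molecule, with 21.4 and 24.0 after 1 µg and 2.18 and 2.00 after 100 µg (3.44). Each of these was far above its level at the dose 100 times as large.

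Genes lower after 1 µg than after 100 µg included Stc2, at 0.662 and 0.354 after 1 µg and 12.2 and 11.1 after 100 µg (-4.59 ± 0.25, adjusted p = 4.2e-05), and Gcnt3 (-4.07) and Smim38 (-3.67). Rgs4, which switches off G protein signals, had 0.837 and 0.906 after 1 µg and 14.3 and 13.6 after 100 µg (-4.0), and Pcp4 (-3.91) and the calcium sensor gene Vsnl1 (-2.92) were lower too. Pgr had 3.31 and 3.38 after 1 µg and 8.30 and 7.86 after 100 µg (-1.27 ± 0.11, adjusted p = 0.00043).

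The endothelial genes differed between the doses in 9 of 12, all higher after 1 µg, with a median of 1.36. The interferon genes behaved otherwise: 1 of the 18 passed between the doses (Zbp1, -1.21), and the median was -0.10. Ifit3 had 0.757 and 0.752 after 1 µg and 0.633 and 0.548 after 100 µg, and Irf7 had 13.4 and 14.8 after 1 µg and 13.5 and 14.1 after 100 µg, both far below oil (56.8 and 51.0 for Irf7). Both doses were set against the same 2 oil rats, so a shared fall is not independent evidence at each dose. Against those rats, 11 of the 18 interferon genes fell after 100 µg and 13 after 1 µg, while 0.946% of all genes fell, 0.456% rose and 1.4% changed in either direction after 100 µg.

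Whether the low-dose difference was the same at 49 days was tested as its change between the ages, the difference between DES 1 µg and oil at 35 days minus that at 49 days. It passed for 2483 of 11723 genes, 21.2%, with 1364 higher (11.6%) and 1119 lower (9.55%), or 1064 higher and 1426 lower after quantile normalization. Leaving out any 1 of the 8 arrays gave 795 to 2971 calls, the lowest without the second DES array at 35 days and the highest without the first. At 49 days itself, 33.2% of 10819 genes differed between DES 1 µg and oil, 13.0% higher and 20.2% lower. Several milk genes were higher with DES 1 µg at 35 days and lower at 49 days. Csn1s2a had 2.37 and 2.37 with DES 1 µg and 5.35 and 5.35 with oil at 49 days, so a difference of 5.56 at 35 days stood against -1.17 at 49 days (change 6.74 ± 0.35, adjusted p = 0.00015). Csn2 (5.40) and Wap (4.00) changed in the same way, and so did Igf2, which had 18.9 and 19.1 with DES 1 µg and 67.1 and 69.3 with oil at 49 days (change 4.25 ± 0.16, adjusted p = 3.4e-05). Hsd11b2 had 13.3 and 14.5 with DES 1 µg and 37.3 and 32.0 with oil at 49 days (change 3.29), and the transporter gene Slco3a1, which did not pass at 35 days, changed by 3.36.

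In the other direction, Hpgd had 20.0 and 15.7 with DES 1 µg and 3.03 and 3.08 with oil at 49 days, higher with DES where it had been lower at 35 days (change -4.76 ± 0.42, adjusted p = 0.00094). Atf3 (-3.68), Padi2, an enzyme that converts arginine to citrulline in proteins (-2.63), and the coactivator gene Cited4 (-2.72) had changes of the same sign, although Cited4 had not passed at 35 days. Stc2 (-3.46) and Smim38 (-3.07) were lower with DES at 35 days and differed less at 49 days. Emcn was higher with DES at both ages (2.05 at 35 days and 1.51 at 49 days), and its change did not pass (adjusted p = 0.091). Cd52 (2.22 at 49 days) was likewise higher at both ages. The scan day of the oil arrays at 49 days is not known here, so it cannot be told apart from that group.

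**Figure D5:**
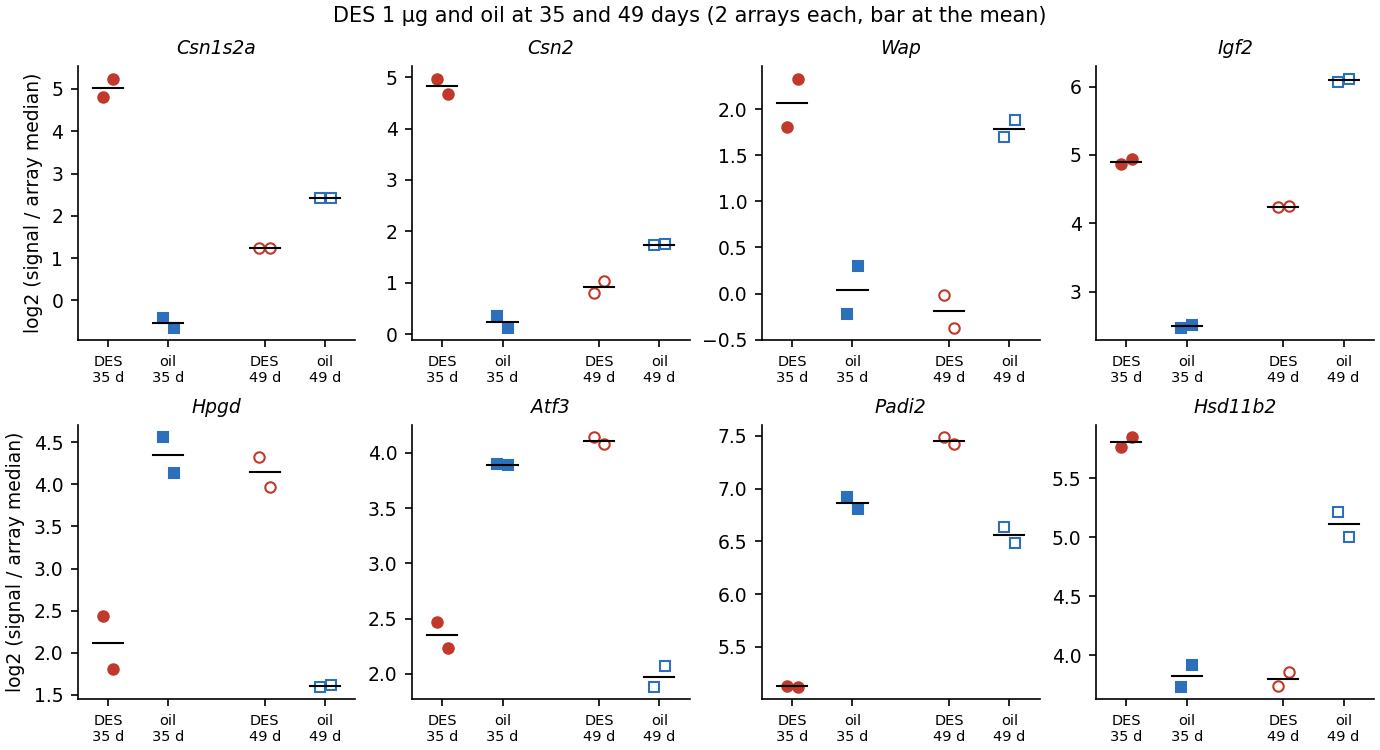
Level (y axis, log2 of signal over array median, own scale for each gene) of 8 genes with DES 1 µg and oil at 35 days (filled) and at 49 days (open), 2 arrays in each group with a bar at the mean. Red circles are DES 1 µg and blue squares oil. Csn1s2a, Csn2, Wap, Igf2 and Hsd11b2 are above oil at 35 days and below it at 49 days, and Hpgd, Atf3 and Padi2 the reverse.

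The authors' deposited table for this comparison lists 406 probes whose group means differ at least 2-fold, 203 higher and 203 lower with DES, with no test. Of these, 382 entered the fit here, 282 passed and 0 had the opposite sign. In the authors' deposited table the fold is 47.5 for Csn1s2a, 24.0 for Csn2, 0.0578 for Stc2 and 0.0681 for Cxcl10.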

How the data were processed

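RNA of laser-captured terminal end buds was amplified, labelled with Cy3 and hybridised to 1-colour Agilent rat arrays, scanned with Agilent Feature Extraction 9.1.3.1 per the file headers. The authors deposited background-corrected intensity values for 12 arrays, scanner intensity for 10 of them, detection flags, and tables of the fold (ratio) between group means. Groups follow the labels, with 2 animals and 1 array each.

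Each array was divided by its median, values below 0.01 were set to 0.01, and log2 was taken. Genes with P or M flags on both arrays of at least 1 group of a comparison were tested, each by its brightest probe, with symbols matched through RefSeq tables. limma 3.58.1 in R 4.3.3 fitted all 12 arrays by group, with 6 residual degrees of freedom and Benjamini-Hochberg adjustment over all genes tested. For a gene detected on both arrays of 1 group and neither of the other, a lower bound was computed from the dim group's lowest detected signal or its own, whichever was higher. The fit was tested on simulated data.

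Members and lists were chosen with earlier results of these data known, and supporting tests on the lists were not made. Genes were named by a rule: the 12 largest rises and falls, the 6 largest bounds each way, up to 6 members of each list by p-value, all members of lists with up to 12 tested, 12 genes of milk and hormone biology, and the 6 largest each way for dose and age change. Other called list members are named only to complete a count and were chosen after their values were seen. Some genes that the rule selects are not reported here. The labels do not say that replicate numbers pair the samples, and the main fit used no pairing. Correlations of deviations between arrays of the same number ran from -0.12 to 0.44. Alternatives were scaling, filters, probes, arrays left out, the replicate number or scan day as a block, and normexp with offset 50 on the median signal, the foreground column used here in place of the planned mean. A list's count covers only members that passed the detection filter.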

Additional observations from a re-analysis of the deposited data

Results flagged for a closer look

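Among the genes named here and detected on both arrays of all 4 groups, the difference between DES 1 µg and oil itself differed between 35 and 49 days for the genes given here, by limma's test of that change, which passed for 21.2% of all genes. Values are the log2 difference at 35 days minus that at 49 days. Changes above 0 were found for Csn1s2a (6.74), Csn2 (5.40), Igf2 (4.25), Wap (4.00), Slco3a1 (3.36), Hsd11b2 (3.29), Spink8 (3.18), Clca1 (2.87), Fabp3 (2.23), Csn3 (1.91), Pttg1 (1.57), Apln (1.50), Tmprss6 (1.48), Rasip1 (1.32) and Plvap (1.27). Smaller ones above 0 were Muc1 (1.25), Plk1 (1.17), Csn1s1 (1.17), Ccl27 (1.01), Ocln (1.00), Col15a1 (0.88), Nr3c2 (0.88), Sfrp2 (0.86), Nr1h3 (0.84), Bgn (0.81) and Lama2 (0.65). Changes below 0 were found for Hpgd (-4.76), Atf3 (-3.68), Stc2 (-3.46), Smim38 (-3.07), Cited4 (-2.72), Padi2 (-2.63), Ier3 (-2.50), Gbp2 (-2.41), Ccl2 (-2.30), Pcp4 (-2.14), Fut2 (-2.07), Zbp1 (-2.03), Msln (-1.93), Gadd45g (-1.76) and Irf7 (-1.75). Next came Ccn1 (-1.69), Fos (-1.68), Jak2 (-1.61), Oasl2 (-1.60), Aqp5 (-1.57), Jchain (-1.54), Clu (-1.50), C2 (-1.46), Cd3g (-1.39), Fcgr3a (-1.36), Ogn (-1.29), Mmp12 (-1.21), Fut1 (-1.19), Cmpk2 (-1.16) and Fabp4 (-1.13). Smaller ones below 0 were Tapbp (-1.10), Adipoq (-1.06), Stat5b (-1.06), Dusp5 (-1.06), Cd74 (-1.04), Parp9 (-1.01), Lgals3bp (-0.94), Ereg (-0.94), Dhx58 (-0.94), Usp18 (-0.93), Stat5a (-0.89), Cma1 (-0.87), Actg2 (-0.86), Slpi (-0.85) and Stat2 (-0.82). The remaining ones were Fcgr1a (-0.77), Irf9 (-0.77), B2m (-0.72), Prlr (-0.60), Nr4a1 (-0.57) and Ccl6 (-0.50). The oil arrays at 49 days, which enter every one of these values, had the lowest share of detected probes (47.2%), and their part in the changes was not tested.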

How the results depend on the processing

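Counts of calls depended on which arrays estimate the spread. Against 904 genes between DES 1 µg and oil at 35 days, fits without 1 array each gave 358 to 706, the 4 arrays alone 155, normexp background 349, and scan day as a fixed block 0, with 1297 at an unadjusted p below 0.05 in limma. The cause was not tested. The fit with scan day as a block has fewer residual degrees of freedom than the 6 of the main fit. Its 0 calls therefore cannot decide what part scan day has. Against 958 for the doses, fits without 1 array each gave 446 to 897, and against 2483 for the change between ages 795 to 2971. Where 1 array was left out, the lone array of its group was assumed to vary like the others. The other planned settings gave 666 to 1180 for the first comparison. Of 159 called genes named here, all kept their sign in every setting run, and 80 kept their call whichever array was left out. The calls lost without at least 1 array were Acat2, Actg2, Actn3, Adamts1, Adipoq, Aplnr, Aqp7, Bgn, Ccl2, Ccl21, Ccl27, Ccl6, Ccnb2, Cd3g, Cenpe, Cfd, Cish, Cldn1, Cma1, Cnn1, Col1a2, Col6a3, Cxcl1, Cxcl3, Cyp4b1, Dgkb, Dhx58, Dlgap5, Dnajc3, Dusp5, Fcgr1a, Fut1, Gadd45g, Ier3, Inhbb, Irf1, Itga7, Jag1, Jchain, Kcnj8, Kdr, Krt7, Lama1, Mcm7, Mcpt1, Mmp12, Mmp3, Muc1, Ncam1, Ndc80, Ngfr, Nqo1, Nr1h3, Nr4a1, Oasl2, Ocln, Ogn, Parp9, Pck1, Pgr, Plk1, RT1-DMa, Rbp4, Rspo3, Sc5d, Slc15a1, Slc22a3, Slco2a1, Slpi, Sox18, Stat5b, Stra6, Syt11, Tap1, Tapbp, Uqcrh, Vsnl1, Xcl1 and Zap70. Of the 159, 5 lost their call with 75th percentile scaling, 1 with quantile normalization, 32 without the filter and 103 with the 4 arrays alone. Normexp background lost 66, the fit without oil at 49 days 29 and scan day as a block all 159. In fits without 1 array or with the 4 arrays alone the sign could not reverse, since the arrays of the groups did not overlap in any called gene. Over the settings the median was 2.30 to 3.1 for caseins, 0.65 to 1.20 for endothelium and -1.20 to -0.83 for type I interferon-induced genes. With 2 animals a group, small differences could not be resolved, and dim genes have only bounds.

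With the replicate number as a block, 1149 genes passed between DES 1 µg and oil, 1238 between the doses and 3160 for the change between ages, and 3 of the named calls were lost. The labels give no pairing, and the correlation of deviations between the 2 groups at 35 days was 0.31.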

Other observations

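Among 18 drug and estrogen metabolism genes tested, 3 rose and 1 fell in limma, beside 3.38% and 4.39% of all genes. Besides Hsd11b2 (1.98), the rises were the cytochrome P450 genes Cyp4b1 (1.23 and 1.70 in relative signal with DES 1 µg, 0.593 and 0.799 with oil, log2 1.07) and Cyp2j4 (0.74). Nqo1, a quinone reductase, had 4.93 and 4.00 with DES 1 µg and 8.11 and 6.63 with oil and fell (-0.72). In this list 2 or 3 rose and 0 to 2 fell without 1 array at a time. Of 6 nerve and Schwann cell genes Ncam1, a neural cell adhesion molecule, had 2.59 and 2.78 with DES 1 µg and 0.763 and 1.06 with oil (1.58, adjusted p = 0.039), and Ngfr, the low-affinity nerve growth factor receptor that basal cells also express, fell (-0.81). Of 7 skeletal muscle genes Actn3 passed higher (0.54), and the summed signal of that list was 560.1 and 650.2 with DES 1 µg and 583 and 629.8 with oil.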
